A study of Homo sapiens with 3 samples.

Results

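The Eph receptors and ephrins form a family of contact-dependent signalling proteins, described here in Caco-2 cells from 10 members: EPHA1, EPHA2, EPHA4, EPHA7, EPHB2, EPHB3, EPHB4, EFNA1, EFNA4 and EFNB2. They were found by matching gene symbols to the Ensembl identifiers of the count table and make up 10 of the 22 Eph and ephrin genes (14 receptors, 8 ephrins) among its 60664 identifiers. The members were chosen by name after the counts and ratios of these same libraries had been seen, that is, partly selected on the values given below, so their levels and ratios are a description. Caco-2 is a human colon carcinoma line that often stands in for gut epithelium in culture. All libraries came from these cells, labelled wild type, with 1 library per group. DSS+polydatin cells had 30 µM polydatin for 2 h and then polydatin together with 3% dextran sulfate sodium (DSS) for 8 h, DSS cells had 3% DSS for 8 h, and control cells were left in the incubator. DSS inflames the colon of rodents that drink it, and polydatin is resveratrol joined to a glucose. The title of the series ties polydatin to NRF2, SLC7A11, GPX4 and ferroptosis, and the question for the present genes is how they differed between the same libraries.

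Eph receptors are receptor tyrosine kinases that bind ephrins on neighbouring cells. EphA receptors mostly bind A-type ephrins, which are held in the membrane by a lipid anchor, and EphB receptors mostly bind B-type ephrins, which span the membrane, while EphA4 binds both kinds. Binding signals into the receptor cell (forward) and into the ephrin cell (reverse), and often ends in repulsion or in changes of adhesion. In the mouse intestine, EphB2 and EphB3 in the crypt and ephrin-B ligands towards the villus help to keep cells in place, and EPHB2 is known as a target of WNT signalling.

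The libraries held 16667622 counts (DSS+polydatin), 18825914 counts (DSS) and 18695613 counts (control), and mitochondrially encoded transcripts took 4.34%, 4.77% and 5.31% of counts in the same order. Levels are CPM, with library totals scaled by the trimmed mean of M values (TMM), and intervals in parentheses are 95% counting intervals. These cover the counting error of reads within a library and not the spread between cultures. Several reads can stem from 1 RNA molecule, so they may be too narrow even for counting error. With no replicates, every ratio compares libraries, lacks a replicate check and carries no test. A gene counted as measured at a CPM of 1 in at least 1 library (14792 genes), and as higher or lower at 1.5-fold or more with an interval excluding 1. Of 12 epithelial markers, EPCAM, CDH1, VIL1, KRT8 and KRT18 had at least 7051 counts in every library, and KRT19, CDH17, HNF4A and CDX2 at least 1365. CDX1 was at 0 in all, KRT20 at 10 counts or fewer and LGALS4 at 25 or fewer. In DSS+polydatin against DSS, 1 of the 10 measured was higher (LGALS4) and 1 lower (CDX2, at 0.665 times), beside 5.39% and 2.60% of all measured genes. LGALS4 reached a CPM of 1 in DSS+polydatin alone. Of the markers of other cells, 5 of 8 fibroblast, 2 of 8 endothelial and 3 of 8 leukocyte genes were measured, with summed levels of 55.0 to 68.2, 13.5 to 24.9 and 5.67 to 10.5 CPM across libraries. PTPRC, which defines leukocytes, and the endothelial genes KDR, ERG, CLDN5 and EMCN were at 0 in all. In a bulk library, fewer cells of a type and less RNA per cell cannot be told apart.

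The stretches before the start sites of 4 members show the sequence next to the receptor genes that passed 1.5-fold in DSS against control, EPHA2, EPHB2 and EPHA4. The fourth is EFNB2, the ligand gene that counted as lower in DSS+polydatin against control but stayed inside 1.5-fold in DSS against control. They were taken from RefSeq (GRCh38.p14) as the bases 250 to 21 before the start, read 5′ to 3′ on the strand of the gene. For EPHA4 the bases that lie in an annotated exon of the gene were left out, so that it ends 55 bases before the start. RefSeq lists more than 1 start for EPHA4, and the start used is the one nearest to that of the longest protein-coding transcript. It lies inside the annotated gene, and the window at the other start, near the 5′ end of the gene, held none of the motifs below and is not printed. The positions are chr1:16156090-16156319 (minus strand) for EPHA2, chr1:22710589-22710818 (plus strand) for EPHB2, chr2:221572359-221572554 (minus strand) for EPHA4 and chr13:106535683-106535912 (minus strand) for EFNB2. Capitals mark the matches to 3 motifs searched on both strands, the cAMP response element TGACGTCA, the AP-1 motif TGANTCA and the TCF/LEF core CTTTGA, none of which overlapped another.
EPHA2: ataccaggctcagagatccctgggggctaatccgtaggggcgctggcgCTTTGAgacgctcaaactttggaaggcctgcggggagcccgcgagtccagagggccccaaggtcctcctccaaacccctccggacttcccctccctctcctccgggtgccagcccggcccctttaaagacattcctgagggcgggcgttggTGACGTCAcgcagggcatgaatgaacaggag
EPHB2: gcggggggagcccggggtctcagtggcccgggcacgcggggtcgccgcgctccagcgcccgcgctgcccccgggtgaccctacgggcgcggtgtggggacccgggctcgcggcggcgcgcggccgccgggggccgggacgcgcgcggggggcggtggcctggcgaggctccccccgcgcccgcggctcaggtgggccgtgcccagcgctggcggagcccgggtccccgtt
EPHA4: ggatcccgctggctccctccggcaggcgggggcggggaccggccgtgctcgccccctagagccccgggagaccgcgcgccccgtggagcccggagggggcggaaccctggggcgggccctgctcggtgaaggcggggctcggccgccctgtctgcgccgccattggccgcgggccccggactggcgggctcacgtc
EFNB2: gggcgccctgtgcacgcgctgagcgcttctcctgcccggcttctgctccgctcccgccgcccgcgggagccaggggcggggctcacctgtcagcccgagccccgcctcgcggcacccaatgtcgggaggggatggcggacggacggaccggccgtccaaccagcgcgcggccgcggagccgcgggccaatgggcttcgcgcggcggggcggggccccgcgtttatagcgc
Only the EPHA2 stretch held any of these letters, with TGACGTCA at 51 to 44 and CTTTGA at 202 to 197 bases before the start. Across 35116 RefSeq windows of the same 230 bases, 1.43% held TGACGTCA, 6.20% held TGANTCA and 10.6% held CTTTGA. Of the 14 windows of the 10 members, 1 held TGACGTCA, 1 held CTTTGA and none held TGANTCA. EPHA2 was thus the sole member with a match, but the motifs were chosen with the sequences seen, so nothing is read from this. The 12 windows found for other family genes belong to 10 genes, with none for EPHA10 and EFNB3. None of them held any of the 3 motifs. The EPHB2, EPHA4 and EFNB2 stretches were rich in G and C, at 85.7%, 81.1% and 78.3%, against 63.9% for EPHA2. A match describes letters in a window and shows no binding, and the absence of a match says nothing about the factor.

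EPHA2 (ENSG00000142627, chromosome 1, 16124337 to 16156087, minus strand) had the highest level per kilobase of exon among the Eph receptors in every library. It encodes a kinase that epithelial cells carry at their contacts and that binds ephrin-A1. It had 2314 counts (133 CPM) in DSS+polydatin, 1827 counts (98.6 CPM) in DSS and 808 counts (44.5 CPM) in control. The 3 counting intervals did not overlap, with DSS+polydatin on top and control lowest. DSS stood at 2.22 times control (2.04 to 2.41), a ratio exceeded by 523 of the 14792 measured genes. DSS+polydatin stood at 1.35 times DSS (1.27 to 1.43), short of 1.5-fold, and at 2.98 times control (2.75 to 3.23). The annotated antisense gene EPHA2-AS1 lies on the other strand, shares no exon bases with it and had 12, 13 and 10 counts in DSS+polydatin, DSS and control.

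EPHA4 (ENSG00000116106, chromosome 2, 221418027 to 221574202, minus strand) went the other way. This receptor is known from axon guidance and accepts both A-type and B-type ephrins. It had 300 counts (17.2 CPM) in DSS+polydatin, 321 counts (17.3 CPM) in DSS and 1066 counts (58.7 CPM) in control. The DSS+polydatin and DSS intervals overlapped and both lay below control. DSS stood at 0.295 times control (0.260 to 0.335), and 55 measured genes had a lower ratio. DSS+polydatin stood at 0.293 times control (0.257 to 0.333), again with 55 measured genes below it. Against DSS, DSS+polydatin stood at 0.993 times (0.846 to 1.17), with a log2 ratio of −0.04 to 0.08 over all settings tried, so its sign depended on the setting and the interval leaves room for a modest difference either way. An unnamed antisense gene (ENSG00000272944) shares 353 exon bases with EPHA4 and had 8 counts in DSS+polydatin, 7 in DSS and 22 in control. The strand setting of the counting is not given in the sources used here, so reads of this gene and of EPHA4 cannot be told apart there.

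**Figure D1:**
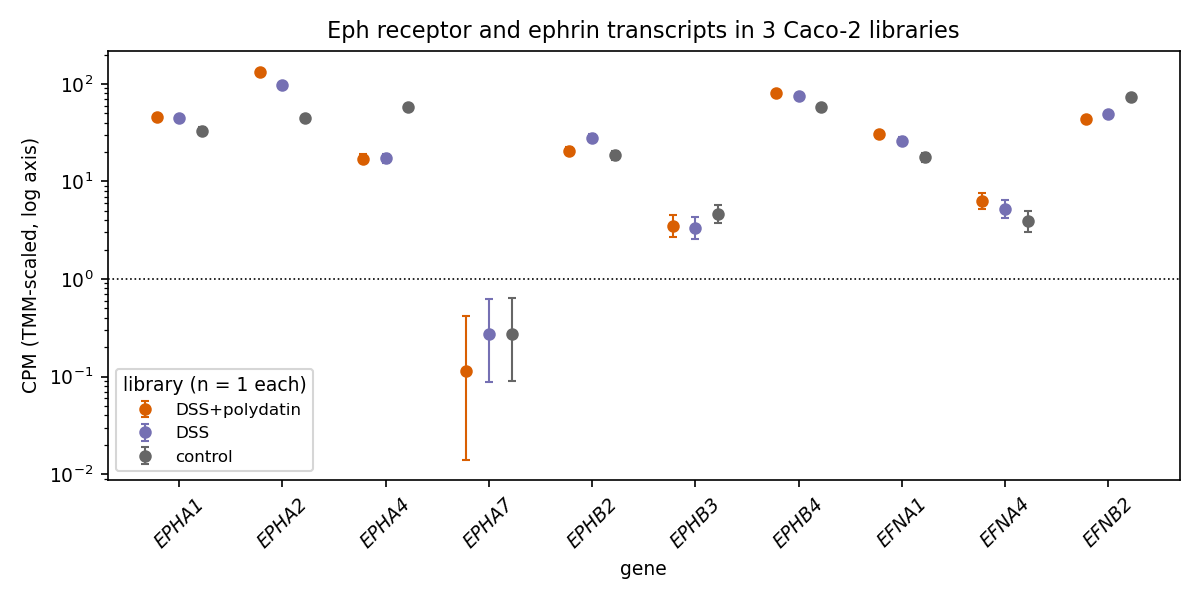
Level of each of the 10 members in CPM on a log axis, with 1 point for each library (DSS+polydatin, DSS, control, n = 1 each) and bars for the 95% counting interval. The dotted line is a CPM of 1. EPHA2 was highest in DSS+polydatin (133 CPM) and EPHA4 in control (58.7 CPM), while EPHA7 lay under the line in all 3 libraries.

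EPHA1 (ENSG00000146904, chromosome 7, 143390289 to 143408892, minus strand), an epithelial receptor, had 791 counts (45.4 CPM) in DSS+polydatin, 820 counts (44.3 CPM) in DSS and 602 counts (33.2 CPM) in control. DSS stood at 1.34 times control (1.20 to 1.49) and DSS+polydatin at 1.02 times DSS (0.928 to 1.13), with a log2 ratio of −0.08 to 0.12 against DSS over all settings. Control was the low library and the others overlapped. The gene shares 82 exon bases with ZYX on the other strand, which encodes the focal adhesion protein zyxin and had 1654 counts in DSS+polydatin, 1539 in DSS and 808 in control. The part of ZYX reads in the EPHA1 counts was not tested. EPHA7 (ENSG00000135333, chromosome 6, 93240020 to 93419547), a receptor of the developing nervous system, had 2 counts in DSS+polydatin, 5 in DSS and 5 in control. It was not measured by the rule above, and no ratio is given.

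Among the B receptors, EPHB2 (ENSG00000133216, chromosome 1, 22710839 to 22921500), which marks the lower crypt in the intestine, was highest in DSS. It had 359 counts (20.6 CPM) in DSS+polydatin, 521 counts (28.1 CPM) in DSS and 339 counts (18.7 CPM) in control. The DSS interval lay above both others, which overlapped. DSS stood at 1.51 times control (1.31 to 1.73), just past the threshold, and DSS+polydatin at 0.732 times DSS (0.638 to 0.839), within 1.5-fold. With DESeq2 size factors the EPHB2 log2 ratio of DSS against control was 0.57 in place of 0.59, and after removal of a trend on GC content and transcript length it was 0.41, and it passed 1.5-fold under neither. DSS+polydatin stood at 1.10 times control (0.948 to 1.28), a log2 ratio that ran over the settings from −0.12 to 0.25. The DSS library is the numerator of the first of these ratios and the denominator of the second, so they are not independent.

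EPHB3 (ENSG00000182580, chromosome 3, 184561784 to 184582409), the usual partner of EPHB2 in the crypt, was sparser. It had 61 counts (3.50 CPM) in DSS+polydatin, 62 counts (3.35 CPM) in DSS and 85 counts (4.68 CPM) in control. All 3 intervals overlapped. DSS stood at 0.715 times control (0.507 to 1.00) and DSS+polydatin at 1.05 times DSS (0.722 to 1.51), so neither difference was detectable at this depth. The log2 ratio of DSS+polydatin to DSS ran from −0.10 to 0.15 over the settings, and EPHB3 counted as lower in DSS than in control once the GC content and length trend was taken out, at −0.73 in place of −0.48. EPHB4 (ENSG00000196411, chromosome 7, 100802565 to 100827521), the receptor for ephrin-B2 known from veins, had 1411 counts (80.9 CPM) in DSS+polydatin, 1404 counts (75.8 CPM) in DSS and 1045 counts (57.5 CPM) in control. Control was the low library, with DSS at 1.32 times control (1.21 to 1.43) and DSS+polydatin at 1.07 times DSS (0.991 to 1.15). The sign of the DSS+polydatin ratio to DSS depended on the setting: its log2 ratio was 0.09, and −0.06 once the GC content and length trend was taken out. EPHB4 shares 69 exon bases with SLC12A9 on the other strand, a gene with 547 counts in DSS+polydatin, 472 in DSS and 337 in control, and the part of these reads in the EPHB4 counts was not tested.

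Of the ligands, EFNA1 (ENSG00000169242, chromosome 1, 155127460 to 155134857) encodes ephrin-A1, a ligand of EphA2. It had 531 counts (30.5 CPM) in DSS+polydatin, 483 counts (26.1 CPM) in DSS and 322 counts (17.7 CPM) in control. Control was below both others, whose intervals overlapped slightly. DSS stood at 1.47 times control (1.27 to 1.70), just inside 1.5-fold, DSS+polydatin at 1.17 times DSS (1.03 to 1.32) and at 1.72 times control (1.49 to 1.98). EFNA4 (ENSG00000243364, chromosome 1, 155063731 to 155069553), another A-type ephrin from the same cluster on chromosome 1, had 110 counts (6.31 CPM) in DSS+polydatin, 97 counts (5.24 CPM) in DSS and 71 counts (3.91 CPM) in control. DSS stood at 1.34 times control (0.976 to 1.85) and DSS+polydatin at 1.61 times control (1.19 to 2.21). The log2 ratio of EFNA4 in DSS+polydatin against control was 0.69, and 0.57, short of 1.5-fold, once the GC content and length trend was taken out. Its 3 intervals formed a chain in which DSS overlapped both others. The annotated readthrough gene EFNA4-EFNA3 shares 189 exon bases with EFNA4 and had 0 counts in all libraries.

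EFNB2 (ENSG00000125266, chromosome 13, 106489731 to 106535662, minus strand) encodes ephrin-B2, the membrane-spanning ligand of EphB4 and also of EphA4. It had 755 counts (43.3 CPM) in DSS+polydatin, 922 counts (49.8 CPM) in DSS and 1345 counts (74.1 CPM) in control. Control was the high library, and the DSS+polydatin interval lay just below that of DSS without overlap. DSS stood at 0.672 times control (0.617 to 0.731), just inside 1.5-fold, and DSS+polydatin at 0.870 times DSS (0.789 to 0.959) and 0.585 times control (0.534 to 0.640). EFNB2 counted as lower in DSS with DESeq2 size factors and once the GC content and length trend was taken out, at a log2 ratio of −0.59 under both in place of −0.57. EFNB2 is also known from arteries. The 8 endothelial markers summed to 13.5 CPM in DSS+polydatin, 17.5 CPM in DSS and 24.9 CPM in control, mostly PECAM1 with 166, 297 and 443 counts, while VWF had 68, 22 and 9 counts and 4 of the 8 were at 0 in all libraries. The part of such transcripts in the EFNB2 ratio was not tested. An antisense gene (ENSG00000284966) shares 1313 exon bases with EFNB2 and had 7 counts in DSS+polydatin, 14 in DSS and 8 in control.

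**Figure D2:**
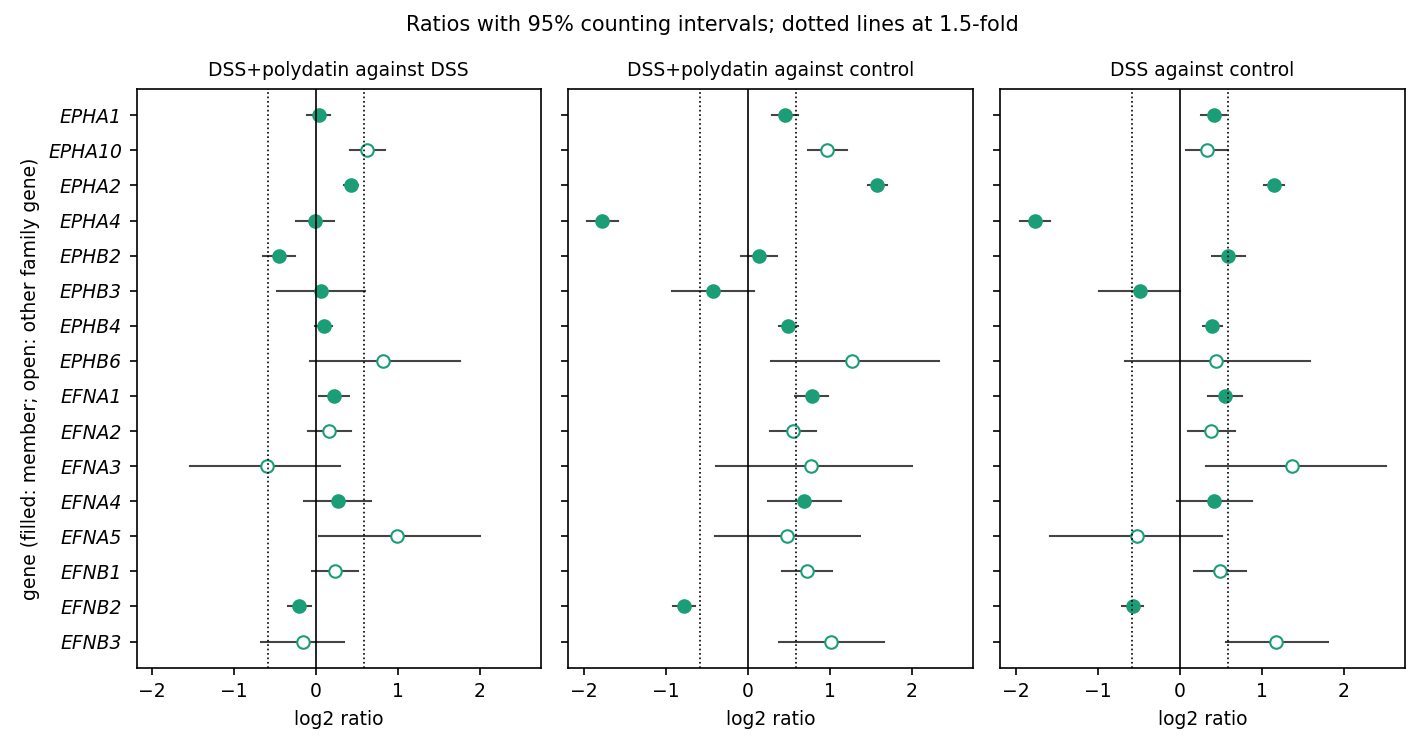
Log2 ratio of each measured Eph receptor and ephrin gene in the 3 comparisons, with horizontal lines for 95% counting intervals, filled points for members and open points for other family genes. Dotted lines stand at 1.5-fold. EPHA2 (2.22 times) and EPHA4 (0.295 times) lie on opposite sides in DSS against control, and EPHA4 lies near 0 in DSS+polydatin against DSS (0.993 times).

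Counted together, 9 of the 10 members were measured, each at a CPM of 1 or more in all 3 libraries. In DSS against control, 2 of the 9 were higher (EPHA2, EPHB2), beside 9.45% of all measured genes, and 1 was lower (EPHA4), beside 5.81%. Their median log2 ratio was 0.42, against −0.01 over all measured genes, with 6 of 9 above 0. In DSS+polydatin against DSS none was higher, beside 5.39% of all measured genes, and none lower, beside 2.60%, and the median was 0.06 against −0.01. With total-count scaling, 82.9% of all calls in this comparison were higher ones, against 67.5% with TMM factors. In DSS+polydatin against control, 3 members were higher (EPHA2, EFNA1, EFNA4), beside 16.0%, and 2 lower (EPHA4, EFNB2), beside 12.4%, with a median of 0.45 against −0.02. In that comparison 70.5% of all calls were higher ones with total-count scaling, against 56.4% with TMM factors. EPHA1 was the member at the medians of 0.42 and 0.45. Once the trend on GC content and transcript length was taken out, its log2 ratio was 0.25 in DSS against control. In DSS+polydatin against control it was then 0.16. The members' median under that setting was not computed. At 2-fold, EPHA2 alone was higher and EPHA4 alone lower in DSS against control, beside 4.24% and 1.76% of all measured genes, and likewise in DSS+polydatin against control, beside 8.53% and 3.27%. No member passed 2-fold in DSS+polydatin against DSS, beside 1.94% higher and 0.460% lower. The members were chosen with these contrasts in view and the comparisons share libraries, so nothing is read from the counts.

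**Figure D3:**
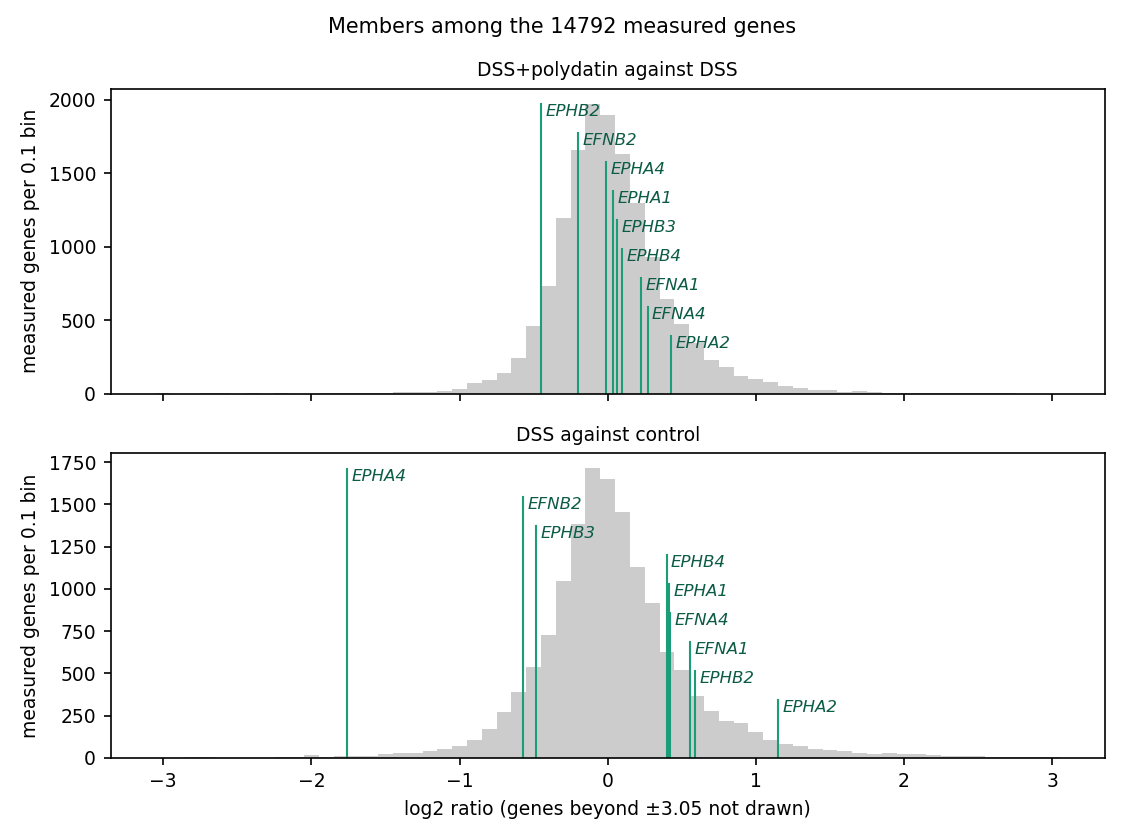
Histograms of the log2 ratio of all 14792 measured genes in bins of 0.1, for DSS+polydatin against DSS (top) and DSS against control (bottom), with a vertical line for each of the 9 measured members. EPHA4 stands in the left tail of DSS against control at −1.76 and EPHA2 to the right at 1.15, whereas in DSS+polydatin against DSS the members lie between −0.45 (EPHB2) and 0.43 (EPHA2).

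Levels of different genes were compared per kilobase of annotated exon. In DSS+polydatin the order ran from EPHA2 (31.9 CPM per kb, 30.6 to 33.2) through EPHB4 (12.6), EFNA1 (11.99), EPHA1 (9.58), EFNB2 (8.63), EFNA4 (4.99), EPHA4 (2.28), EPHB2 (1.64) and EPHB3 (0.772) to EPHA7 (0.015). In DSS, EPHA2 again led with 23.7 CPM per kb, and EPHB4 (11.8), EFNA1 (10.3), EFNB2 (9.92) and EPHA1 (9.35) followed, each overlapping the next in its counting interval, as did EPHA4 (2.29) and EPHB2 (2.25). In control the order began with EFNB2 (14.8 CPM per kb, 13.98 to 15.6) and EPHA2 (10.7), followed by EPHB4 (8.94), EPHA4 (7.77), EPHA1 (7.00) and EFNA1 (6.98), of which the last 3 overlapped their neighbours. EPHA4 was thus the fourth of the 10 members in control and the seventh in both other libraries. With the length of the longest transcript in place of all exon bases, EPHB4 (11.4) and EPHA2 (11.2) changed places in control, as did EPHA1 (9.86) and EPHA4 (9.25), and in DSS EPHA1 (13.2) stood above EFNB2 (9.96).

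The make-up of the receptor and ligand pools can be given as shares within each library, which need no scaling between libraries. A share depends on every gene of its pool and can differ in direction from the level of the gene. With longest transcript lengths, 10 of the members' shares moved beyond a small tolerance and 20 did not. EPHA2 held 51.3% of the summed CPM per kb of the 14 receptor genes in DSS+polydatin, 45.2% in DSS and 27.7% in control. EPHA4 held 3.66%, 4.37% and 20.1% in the same libraries. EPHB4 held 20.2%, 22.5% and 23.1%, and EPHA1 15.4%, 17.8% and 18.1%. The shares of EPHB4 and EPHA1 were thus highest in control, the library in which their levels in CPM were lowest. The per-kilobase ratio of EPHA2 to EPHA4 was 14.01 (12.4 to 15.9) in DSS+polydatin, 10.3 (9.18 to 11.7) in DSS and 1.38 (1.25 to 1.51) in control, so that the receptors lay within 1.5-fold of each other in control and more than 9-fold apart in the other libraries. Summed over receptors, levels were 62.2 CPM per kb in DSS+polydatin, 52.5 in DSS and 38.7 in control. Of these sums EPHA2 alone gave 31.9, 23.7 and 10.7 CPM per kb, so most of the difference between the sums was this gene.

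Among the 8 ephrin genes, EFNB2 held 18.5% of the summed CPM per kb in DSS+polydatin, 22.9% in DSS and 38.2% in control, and EFNA1 held 25.8%, 23.7% and 18.1%. EFNA2, an A-type ephrin gene outside the 10 members, held 32.3%, 31.0% and 26.6%. The A-type sum was 32.9 CPM per kb in DSS+polydatin, 28.8 in DSS and 20.9 in control, and the B-type sum 13.7, 14.5 and 17.7. Of the B-type genes, EFNB2 alone was highest in control. EFNB1 had 3.95, 3.36 and 2.39 CPM per kb and EFNB3 had 1.14, 1.27 and 0.564, so both were lowest in control. EPHB4 and its ligand gene EFNB2 had a per-kilobase ratio of 1.46 (1.33 to 1.59) in DSS+polydatin, 1.19 (1.09 to 1.29) in DSS and 0.606 (0.558 to 0.657) in control, so receptor transcripts outnumbered ligand transcripts per length in all but the control library. EPHA2 and its ligand gene EFNA1 had a ratio of 2.66 (2.42 to 2.93), 2.31 (2.09 to 2.56) and 1.53 (1.34 to 1.75) in the same order. EPHB2 over EPHB3 gave 2.13 (1.62 to 2.84) in DSS+polydatin, 3.04 (2.34 to 4.03) in DSS and 1.44 (1.14 to 1.85) in control.

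**Figure D4:**
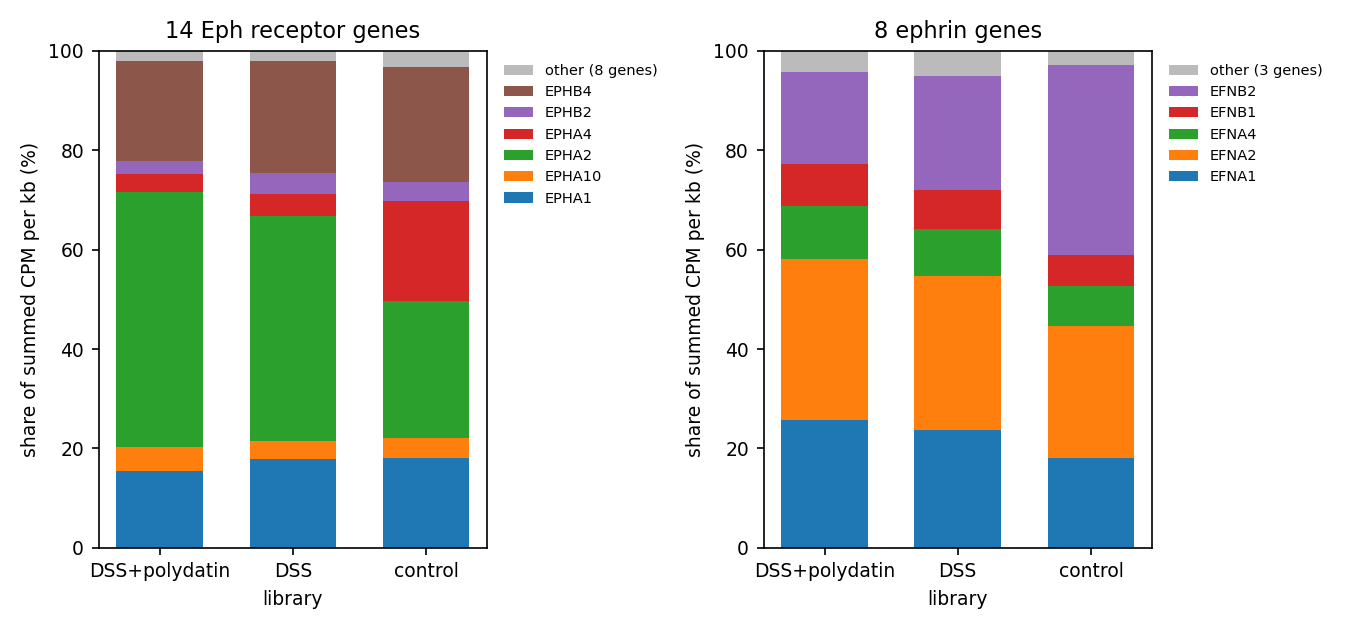
Stacked bars of the share of summed CPM per kb held by each gene within the 14 Eph receptor genes (left) and the 8 ephrin genes (right) in the DSS+polydatin, DSS and control libraries, n = 1 each. The EPHA2 share is 51.3%, 45.2% and 27.7%, the EPHA4 share 3.66%, 4.37% and 20.1%, and the EFNB2 share 18.5%, 22.9% and 38.2%, from left to right.

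The other 12 family genes include 7 that were measured, 3 of them (EPHB6, EFNA3, EFNA5) not at a CPM of 1 in every library. EPHB6 reached it in DSS+polydatin alone (1.72 CPM), EFNA3 missed it in control (0.606 CPM) and EFNA5 in DSS (0.810 CPM). Each was thus measured through libraries that include the one where it counted as higher, so nothing is read from the calls of these 3 genes. EFNB3, a B-type ephrin gene, had 64 counts in DSS+polydatin, 76 in DSS and 33 in control, and DSS stood at 2.26 times control (1.48 to 3.51). EFNA3 had 18, 29 and 11 counts, with DSS at 2.58 times control (1.25 to 5.73). EPHA10, whose product lacks kinase activity, had 428 counts in DSS+polydatin, 294 in DSS and 228 in control, and DSS+polydatin stood at 1.55 times DSS (1.33 to 1.80). EFNA5 had 28, 15 and 21 counts, with DSS+polydatin at 1.98 times DSS (1.02 to 4.00). EPHB6, the other receptor without kinase activity, had 30, 18 and 13 counts, and its interval against DSS included 1 (0.956 to 3.37). EFNB1, an ephrin-B ligand of EphB2, had 228, 206 and 144 counts and stood in DSS at 1.40 times control (1.13 to 1.75), and EFNA2 had 249, 236 and 177 counts and stood at 1.31 times (1.07 to 1.60). In DSS+polydatin against control 4 of the 7 were higher and none lower, beside 16.0% and 12.4% of all measured genes. These were EPHB6 at 2.40 times control (1.22 to 5.02), EFNB3 at 2.02 times, EPHA10 at 1.95 times and EFNB1 at 1.65 times. With the GC content and length trend taken out, 1 was higher in place of 4. With a CPM of at least 10, 2 were higher in place of 4. That setting left 0 higher in place of 2 in DSS against control, and 1 in place of 2 in DSS+polydatin against DSS. EPHA5 had 0 counts in all libraries, and a floor of 3 counts, which is lower than the upper bound of the exact interval used for the other levels, is 0.172, 0.162 and 0.165 CPM in DSS+polydatin, DSS and control. EPHA3, EPHA6, EPHA8 and EPHB1 had 8 counts or fewer in every library.

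Genes that carry Eph and ephrin signals inside the cell were taken as lists of forward and reverse partners. Of 28 forward signalling genes 26 were measured, and 1 was higher and none lower in DSS than in control, beside 9.45% and 5.81% of all measured genes, with a median log2 ratio of 0.01 against −0.01 over all measured genes. The higher gene was VAV3, with 540 counts in DSS+polydatin, 660 in DSS and 375 in control (DSS at 1.73 times control, 1.52 to 1.96). None of the 26 passed 1.5-fold in DSS+polydatin against DSS, beside 5.39% of all measured genes higher and 2.60% lower. The median there was −0.10 against −0.01 over all measured genes, and 20 lay below 0. In DSS+polydatin against control none was higher and 2 were lower, beside 16.0% and 12.4%. These were KALRN at 0.597 times control (0.537 to 0.663) and TIAM1 at 0.652 times (0.467 to 0.905), both named after their values were seen. SRC, named after its values were seen, encodes a kinase that acts beside Eph receptors and had 2038, 1542 and 2000 counts, with DSS+polydatin at 1.40 times DSS (1.31 to 1.501). Of 8 reverse signalling genes 7 were measured, with none higher and 1 lower in DSS than in control, beside the same 9.45% and 5.81%, and a median of 0.09 against −0.01. That gene, PTPN13, encodes a phosphatase with PDZ domains whose mouse counterpart acts on ephrin-B. It had 321 counts in DSS+polydatin, 279 in DSS and 688 in control, and DSS stood at 0.397 times control (0.345 to 0.457). None of the 7 passed 1.5-fold in DSS+polydatin against DSS, beside 5.39% of all measured genes higher and 2.60% lower, and the median was 0.18.

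All 10 genes of proteases and phosphatases that act on Eph receptors or ephrins were measured. The membrane protease gene MMP14 was the 1 higher gene in DSS, beside 9.45% of all measured genes, and none was lower, beside 5.81%. It had 2788 counts in DSS+polydatin, 2155 in DSS and 1164 in control. DSS stood at 1.81 times control (1.69 to 1.95), and DSS+polydatin at 1.37 times DSS (1.30 to 1.45). ADAM10, which encodes the protease known to cut ephrins and was named after its values were seen, had 5427, 5893 and 5567 counts, and DSS stood at 1.04 times control (1.00 to 1.08). The list had a median log2 ratio of 0.07 in DSS against control and 0.03 in DSS+polydatin against DSS. In the latter comparison none of the 10 passed 1.5-fold, beside 5.39% of all measured genes higher and 2.60% lower.

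Since EPHB2 belongs to the crypt genes driven by WNT, 15 such genes were listed, of which 13 were measured. In DSS against control, 4 were higher and none lower, beside 9.45% and 5.81% of all measured genes, with a median of 0.16 against −0.01. They were NOTUM (94, 106 and 26 counts in DSS+polydatin, DSS and control), SMOC2 (40, 46 and 11), SOX9 (1982, 2866 and 1536) and the stem cell gene LGR5 (969, 1436 and 858). SMOC2 lay below a CPM of 1 in control (0.606 CPM), so it was measured only through the libraries where it was higher. Of the 13 ratios of DSS to control, 8 lay above 1 and 5 below, down to NKD1 at 0.747 times (0.628 to 0.887). Between DSS+polydatin and DSS none was higher and 5 were lower in DSS+polydatin, beside 5.39% and 2.60%, with a median of −0.48 against −0.01 over all measured genes and 12 of 13 below 0. MYC stood at 0.555 times DSS (0.527 to 0.586) and AXIN2, which encodes a feedback inhibitor, at 0.610 times (0.536 to 0.694). The WNT inhibitor gene NKD1 stood at 0.592 times (0.475 to 0.735) and RNF43 at 0.648 times (0.566 to 0.742). The 13 ratios to DSS ran from MYC at 0.555 times to LEF1 at 1.05 times (0.807 to 1.38). EPHB2 at 0.732 times lay inside this range, and EPHB3 stood at 1.05 times. A part of WNT signalling in the EPHB2 ratio was not tested. With total-count scaling 3 of the 13 were lower in place of 5.

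The ERK feedback genes were listed because EPHA2 is known to respond to the RAS and ERK pathway, and all 12 were measured. In DSS against control 6 were higher and 1 lower, beside 9.45% and 5.81% of all measured genes, with a median of 0.58 against −0.01. The phosphatase genes DUSP5 and DUSP4 had 1776, 889 and 138 counts and 334, 215 and 38 counts in DSS+polydatin, DSS and control. ETV4, a transcription factor gene, stood in DSS at 2.48 times control (2.31 to 2.66) and SPRED2 at 1.505 times (1.41 to 1.61), while EGR1 stood at 0.391 times (0.352 to 0.434). Relative to DSS, DSS+polydatin had 3 of them higher and 1 lower, beside 5.39% and 2.60%, with a median of 0.26 against −0.01. DUSP5 stood at 2.12 times DSS (1.96 to 2.30), EGR1 at 1.72 times (1.53 to 1.92) and DUSP4 at 1.65 times (1.39 to 1.97), and DUSP6, the phosphatase gene most tied to ERK itself, at 0.621 times (0.566 to 0.680). In CPM, EPHA2 was highest in DSS+polydatin and lowest in control, as were DUSP4, DUSP5, SPRY4, SPRED2 and FOSL1. DUSP6, ETV4 and PHLDA1 were highest in DSS, and SPRY2, SPRED1 and EGR1 in control. ETV5 was highest in DSS+polydatin and lowest in DSS. These are orders of point values, and the counting intervals leave some of them unresolved. FOSL1 in DSS+polydatin stood at 1.30 times DSS (0.958 to 1.76). In DSS against control, SPRED1 stood at 0.997 times (0.859 to 1.16), SPRY2 at 0.896 times (0.773 to 1.04) and ETV5 at 0.817 times (0.628 to 1.06). A part of the ERK pathway in the EPHA2 ratios was not tested. With total-count scaling 5 of the 12 were higher in DSS+polydatin than in DSS in place of 3.

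**Figure D5:**
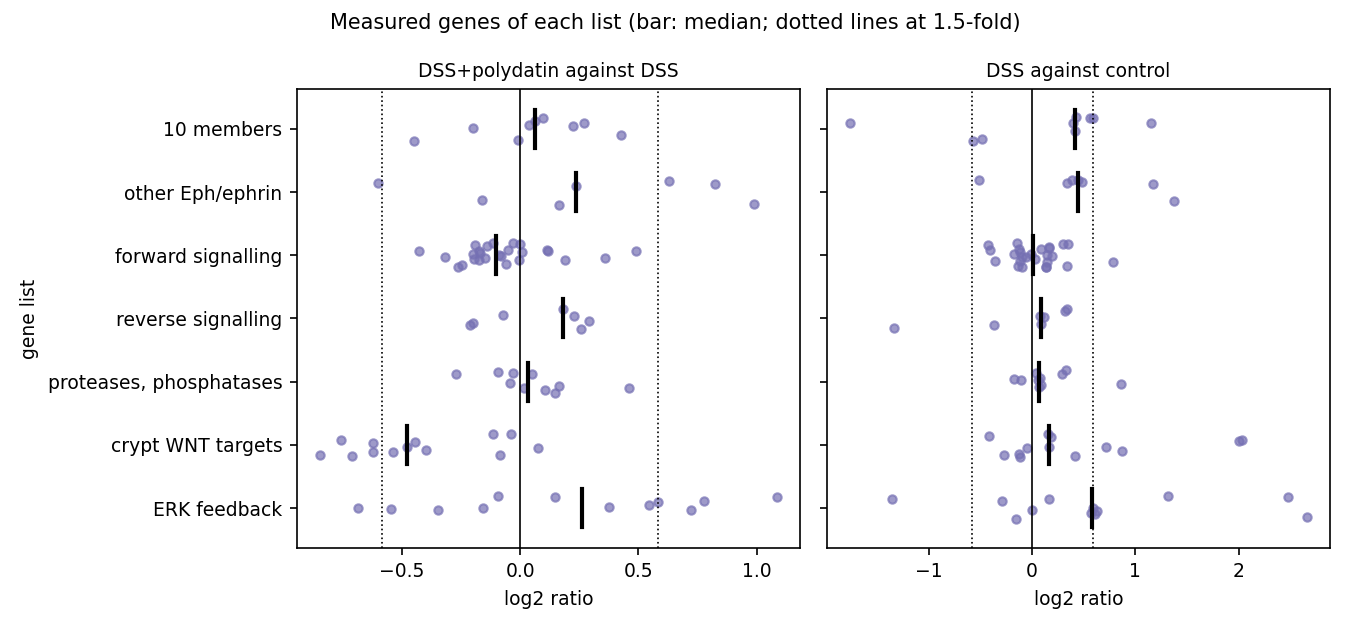
Log2 ratios of the measured genes of the 10 members, the other family genes and 5 lists of partner and pathway genes, for DSS+polydatin against DSS (left) and DSS against control (right), with 1 point for each gene, a bar at the median and dotted lines at 1.5-fold. Points of the forward signalling list gather near 0 (medians of −0.10 and 0.01), while the crypt WNT list lies to the left in DSS+polydatin against DSS (median −0.48).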

How the data were processed

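RNA was measured in 3 Caco-2 libraries, 1 per group. Per the labels' protocols, Trizol was used for extraction and a VAHTS RNA-seq kit for the libraries. HISAT2 and the GRCh38 build are named in the submitters' processing notes. Which program counted reads, with which annotation and strand setting, is not given in the sources used here. Values are raw read counts as deposited by the authors, whole numbers per Ensembl gene with no normalization. Symbols matched 60463 of 60664 identifiers (99.7%). Positions, exon lengths and GC content came from GENCODE 29 (GRCh38), promoters from RefSeq.

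TMM scaling used edgeR 4.0.16 under R 4.3.3 (factors of 1.05 for DSS+polydatin, 0.984 for DSS, 0.971 for control). A CPM of 1 was 17.4, 18.5 and 18.2 counts. Ratios have exact 95% Clopper-Pearson intervals on both counts and levels exact Poisson intervals, computed with scipy 1.17.1 in Python 3.11.15, and the calculation was tested on simulated data. In ratios with a count of 0, 0.5 was added to both counts. The members and gene lists were chosen with earlier results of these data known, and the motifs with the sequences seen. Named genes are all 22 family genes and, of each other list, up to 4 genes called each way in DSS against control and in DSS+polydatin against DSS, ranked by the interval bound nearest to 1. The cell type marker lists were used only to describe the libraries. The erastin and Fer-1 groups of the design text were not analysed here. Alternatives were size factors from DESeq2 1.42.0, scaling by total counts, a minimum CPM of 10 or no minimum, a 2-fold rule, libraries thinned to equal totals, removal of a smooth GC content and length trend (statsmodels 0.14.6) and longest transcript lengths. Figures were drawn with matplotlib 3.10.9.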

Additional observations from a re-analysis of the deposited data

How the results depend on the processing

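Among the members' log2 ratios under the alternatives, 150 stayed within the counting interval of the reported value and 9 did not, all 9 once the trend on GC content and transcript length was taken out. Of the 150, 30 came from the setting without a minimum CPM, which includes EPHA7, and 21 from a CPM of at least 10. A change of filter cannot move a ratio, so those were fixed in advance and are no check. EPHA2 and EPHA4 were called in DSS against control and in DSS+polydatin against control under every alternative run. In DSS against control, the count of higher members was 1 in place of 2 with DESeq2 size factors, with the 2-fold rule and with the trend removed, each time without EPHB2. The count of lower members was 2 in place of 1 with DESeq2 size factors (EFNB2 added) and 3 with the trend removed (EPHB3 and EFNB2 added). In DSS+polydatin against control, the 2-fold rule left 1 higher member in place of 3 and 1 lower in place of 2. There EFNA4 lost its call with a CPM of at least 10, under which it was not measured, and with the trend taken out (log2 ratio 0.57), which added EPHB3 as lower (−0.83), while total-count scaling added EPHB4 as higher (0.60). In DSS+polydatin against DSS no member was called under any alternative run. EFNB2 and EPHB2 lie near 1.5-fold in DSS against control, at log2 ratios of −0.57 and 0.59. The cause of the other shifts was not tested. Over all genes, a CPM of at least 10 left 749 higher and 438 lower calls in DSS against control (1398 and 859 as reported), 237 and 234 in DSS+polydatin against DSS (797 and 384), and 1269 and 1315 in DSS+polydatin against control (2367 and 1829), so that 49.1% of those calls were higher ones in place of 56.4%, with fewer genes tested. Calls at 2-fold numbered 627 and 261, 287 and 68, and 1262 and 483 in the same comparisons. Total-count scaling gave 234 lower calls in DSS+polydatin against DSS in place of 384. Total-count scaling moved the median log2 ratio of all measured genes in DSS+polydatin against control to 0.09, against −0.02 with TMM factors. No paired analysis was possible because each group has 1 library, and leaving out a library leaves no comparison. Without replicates, the spread between cultures is unknown, and intervals cover counting error only.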
